A study of Mus musculus with 6 samples.

Results

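The miR-23, miR-24 and miR-27 microRNAs are made from a pair of paralogous gene clusters. Of the 577 microRNA entries of the array, 5 were chosen by name (mmu-miR-23a, mmu-miR-23b, mmu-miR-24, mmu-miR-27a and mmu-miR-27b, written below without the species prefix). Earlier results of these data were known at that choice. Pooled oocytes of C57BL/6 mice were profiled on 6 one-colour arrays, in 3 groups of 2. Young large oocytes (young growing in the titles) had a diameter of 60 to 80 µm, and their donors were 6 to 8 weeks old. Aged large oocytes (aged growing) had that diameter too, from donors of 41 to 43 weeks, or 42 to 44 weeks by the sample descriptions. Young small oocytes (young non-growing, placed in primordial follicles by another label) had a diameter of 20 to 50 µm and donors of 6 to 8 weeks. All mice were of the same strain, and no label gives a treatment or an altered gene. Samples were run in duplicate by the series text, and nothing says that duplicates came from separate animals or pools. The p-values therefore reflect only how far arrays of a group differ, which may be technical.

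A microRNA guides Argonaute proteins to messenger RNAs that pair with its seed, bases 2 to 8 from the 5′ end, and lowers their stability and translation. The miR-23, miR-24 and miR-27 clusters are best known from blood vessel endothelium, where they bear on vessel growth, and from blood cells. The paralogs of each pair, miR-23a with miR-23b and miR-27a with miR-27b, belong to the same seed family. The transcription factor PU.1 switches on the miR-23a cluster in myeloid precursors. In human cells Myc represses miR-23a and miR-23b, whose target glutaminase feeds glutamine into metabolism, miR-24 lowers cell cycle genes such as E2F2, and miR-27 holds back fat cell formation through PPARγ. In mouse oocytes as a whole, microRNA activity on messenger RNAs is known to be weak.

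The mature sequences show which entries can be told apart, and are given from RefSeq (GRCm38.p6), 5′ to 3′, with the seed in capitals. Sequences were matched for miR-23a, miR-24, miR-27a and miR-27b, and miR-23b is named only.
miR-23a (chr8:84208563-84208583, plus strand): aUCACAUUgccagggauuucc
miR-27a (chr8:84208727-84208747, plus strand): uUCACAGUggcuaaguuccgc
miR-27b (chr13:63300760-63300780, plus strand): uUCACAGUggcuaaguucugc
miR-24 (chr8:84208875-84208896 and chr13:63301251-63301272, plus strand): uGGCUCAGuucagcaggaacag
miR-27a and miR-27b shared the seed and 20 of 21 bases, and differed by C19U, counted from the 5′ end with the base of miR-27a first. The seed of miR-23a differed from that of miR-27 at a single base, U7G, after 5 shared bases. Among 1679 named mature mouse microRNAs in the RefSeq table, the seed of miR-27 was that of miR-27a and miR-27b alone. The seed of miR-24 was shared by 4 others, none of them on the array. The files hold no probe sequences, and signal shared between miR-27a and miR-27b, or between miR-23a and miR-23b, was not tested.

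On chromosome 8 the hairpins Mir23a, Mir27a and Mir24-2 lay within 404 bases (84208518 to 84208921), with gaps of 79 and 56 bases, and overlapped no protein-coding gene of the annotation. On chromosome 13 Mir23b, Mir27b and Mir24-1 lay within 792 bases (63300484 to 63301275), with gaps of 154 and 423 bases, inside the span of the protein-coding gene Aopep. miR-24 is released by both clusters with the same sequence, so its entry cannot tell the loci apart. The other strand of its hairpins can, since it differs between them:
miR-24-1* (chr13:63301213-63301235, plus strand): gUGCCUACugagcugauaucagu
miR-24-2* (chr8:84208839-84208860, plus strand): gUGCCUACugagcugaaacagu
Neither was detected on any array. The array held 4 entries for such other strands, miR-24-1*, miR-24-2*, miR-27a* and miR-27b*, and all 24 of their background-subtracted signals lay below 0, between -2.66 and -0.48.

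The clusters gave weak signals, mostly in large oocytes. The scanner software called 14 of 20 member values detected on the 4 large arrays and 1 of 10 on the 2 small arrays. miR-23a, miR-23b and miR-24 were detected on all 4 large arrays. miR-27b was detected on both young large arrays and on no other, and miR-27a on none. The sole detected value in small oocytes was miR-24 on array 2. The arrays differed in brightness in the same order: 102 and 97 of 577 entries were detected in young large, 79 and 89 in aged large, and 57 and 60 in young small oocytes. The part of brightness in the members' detection was not tested, and less of a microRNA per cell and fewer cells or less RNA on the array cannot be told apart.

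miR-24, which both clusters release, was the only member that lay above the analysis floor on every array. In young large oocytes its raw signal (background-subtracted intensity, ± the error deposited with it) was 21.3 ± 2.23 on array 1 and 16.1 ± 2.03 on array 2. Aged large oocytes gave 9.95 ± 1.76 on array 1 and 11.8 ± 1.69 on array 2, and young small oocytes gave 5.001 ± 1.53 on array 1 and 5.75 ± 1.46 on array 2. The raw values followed the brightness of the arrays, with no overlap between groups. miR-23b, from the chromosome 13 cluster, gave 12.5 ± 1.93 and 8.59 ± 1.84 in young large oocytes, against 5.25 ± 1.67 and 5.76 ± 1.53 in the aged ones. In young small oocytes it gave 1.18 ± 1.49 and 2.70 ± 1.41, neither called detected.

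miR-23a, from the chromosome 8 cluster, did not follow brightness between young and aged large oocytes. It gave 6.70 ± 1.72 and 4.50 ± 1.72 in young large oocytes, against 5.51 ± 1.67 and 6.63 ± 1.55 in the aged ones. These groups overlapped. In young small oocytes it gave 0.79 ± 1.49 and 0.93 ± 1.39, less than the deposited error. miR-27b gave 5.23 ± 1.71 and 3.69 ± 1.72 in young large oocytes, and between 1.45 and 2.34 on the other 4 arrays. miR-27a lay between -0.30 and 2.78 on the 6 arrays and at most 1.69 times its error on each.

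**Figure D1:**
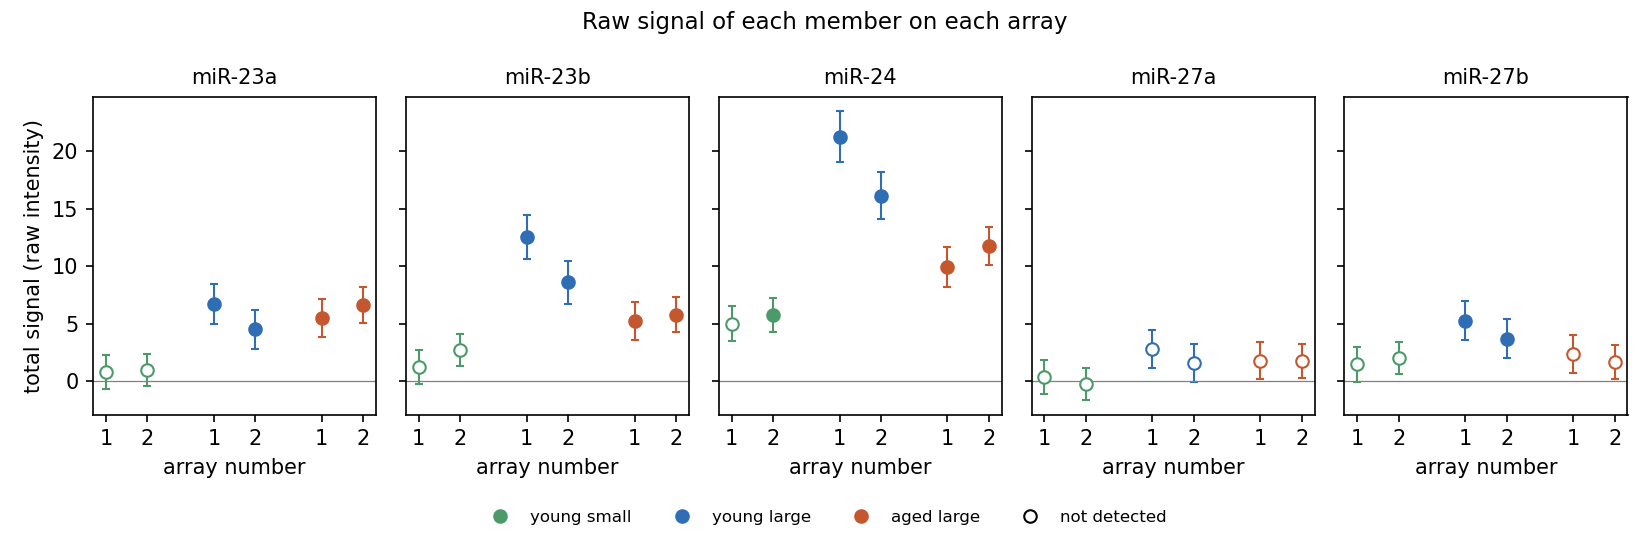
Raw background-subtracted signal (y axis, intensity) of the 5 members on each of the 6 arrays (x axis, array number within its group); bars are the error deposited with each value, and open points were called not detected. miR-24 is highest on the young large arrays (21.3 and 16.1), while miR-23a overlaps between young large and aged large oocytes.

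To compare groups, arrays were scaled to a common 75th percentile of the 56 microRNAs that every array detected, which removes overall brightness. Signals under 6.17, the highest of the arrays' lowest detected scaled signals, were raised to that floor before log2 was taken. The floor hid most of the clusters: 22 of the 30 member values lay under it, 8 of the 15 detected ones among them. Members were tested where both arrays of a compared group detected them, which left 4 of 5 in each comparison and no test of miR-27a. Scaled signals below are those before the floor, unless a fitted log2 change is given.

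Scaled signals of miR-24 overlapped between young and aged large oocytes, and both small arrays lay below all 4 large ones. Young large oocytes had 10.96 and 10.9, aged large oocytes had 10.4 and 11.1, and young small oocytes had 8.59 and 9.75. For miR-23b the arrays read 6.45 and 5.79 (young large), 5.50 and 5.43 (aged large), and 2.03 and 4.59 (young small). For miR-23a they read 3.45 and 3.03 (young large), 5.77 and 6.26 (aged large), and 1.36 and 1.58 (young small). By group means, miR-23a stood in the order aged large, young large, young small, with no overlap between neighbours. For miR-23b the order was young large, aged large, young small, again with no overlap, although young large and aged large oocytes differed by less than the deposited errors. For miR-27b the young small mean of 2.96 ± 0.675 (SD, n = 2) was the highest although undetected, above the young large mean of 2.59 ± 0.146 and the aged large mean of 2.02 ± 0.617 (SD, n = 2 for both). Scaled signals of miR-27a ran from -0.50 to 1.84.

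**Figure D2:**
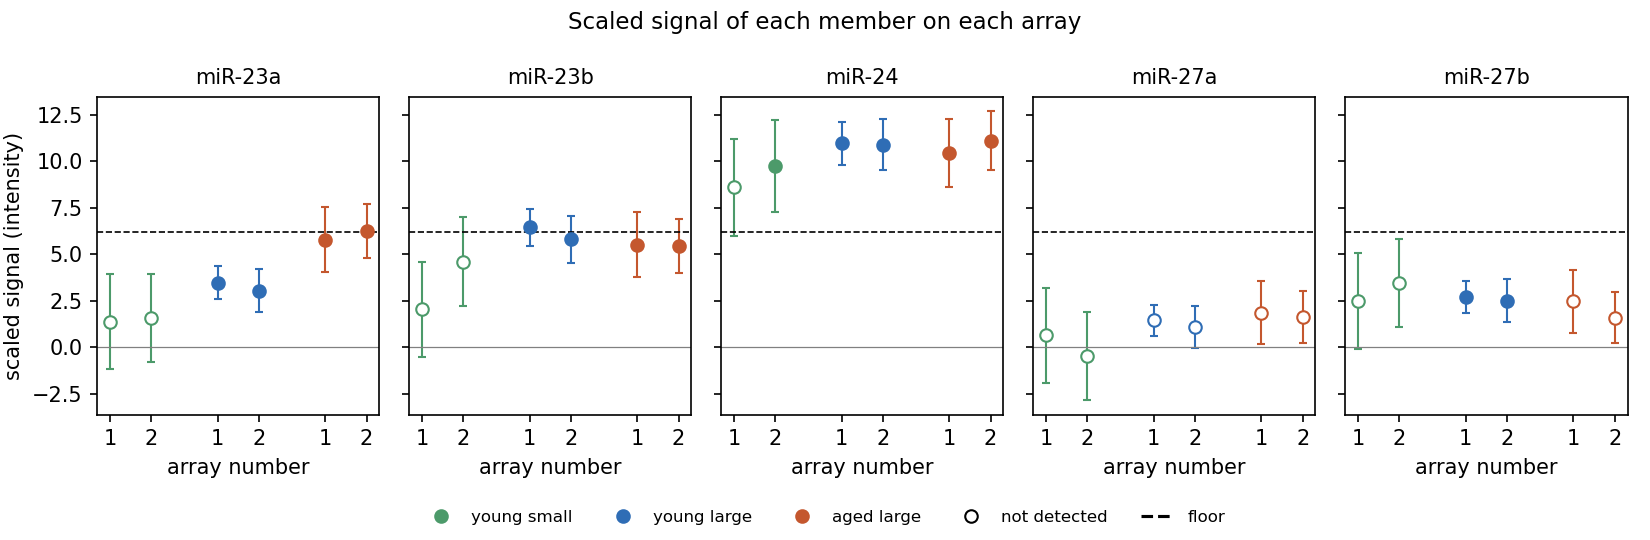
Scaled signal (y axis, intensity after division by the array's factor) of each member on each array (x axis, array number); bars are the deposited error divided by the same factor, open points were not detected, and the dashed line is the floor of 6.17. miR-24 alone lies above the line on every array, and miR-23a in aged large oocytes (5.77 and 6.26) reaches it.

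The first comparison, aged against young large oocytes, bears on reproductive ageing in the series text. With the floor in place none of the 4 tested members passed (limma, adjusted p of 0.05), beside 29.9% of the 97 microRNAs tested. None had an unadjusted p under 0.05, beside 42.3% of those tested. The fitted log2 change of miR-24 was -0.02 ± 0.08 (SE; limma, adjusted p = 1). That of miR-23a was 0.01 ± 0.01 and that of miR-23b -0.03 ± 0.02 (SE; limma, adjusted p = 0.460 and 0.434), and miR-27b had 0 because all its values were at the floor. The members' median was -0.01, beside 0 over all microRNAs tested. Only for miR-24 is this a measured change, since the floor replaced 3 of 4 large-array values of miR-23a and of miR-23b.

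Before the floor, the miR-23 paralogs differed between the age groups in opposite directions, but only the gap of miR-23a exceeded its error. The mean scaled signal of miR-23a was 3.24 ± 0.295 in young large oocytes and 6.02 ± 0.340 in aged ones (SD, n = 2 for both), with no overlap. That of miR-23b was 6.12 ± 0.467 in young large oocytes and 5.47 ± 0.0478 in aged ones (SD, n = 2 for both). Over the tested members, the groups did not overlap for 1 higher (miR-23a) and 2 lower (miR-23b and miR-27b) in aged oocytes, a pattern seen in 80.4% of all microRNAs tested. The gap between the groups of miR-23a was larger than the spread between duplicates, but was 2.05 times the error that the deposited errors give for it (2.77 ± 1.35). The gaps of miR-23b, miR-24 and miR-27b were -0.653 ± 1.38, -0.151 ± 1.51 and -0.570 ± 1.32, each below that error.

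With the floor lowered to 0.942, the lowest detected scaled signal of any array, miR-23a rose with age, by a log2 change of 0.89 with an SE of 0.12 (limma, adjusted p = 0.0106). It was then the only member called, beside 36.1% of the 97 microRNAs tested. With a pseudocount of 1 in place of a floor it rose by 0.73 ± 0.09 (SE; limma, adjusted p = 0.00792), with 38.1% called. The call at the lower floor held whichever array was left out, with log2 changes from 0.80 to 0.99 (limma, adjusted p at most 0.0472, reached without array 1 of young large oocytes). It held with 2 of 6 other scalings, over which the log2 change was 0.14 to 0.95 (limma, adjusted p from 0.0165 to 0.624) and was positive in each. At the lower floor miR-23b had -0.16 ± 0.40 and miR-24 -0.02 ± 0.10 (SE), and neither passed, nor did miR-27b, which was undetected in aged large oocytes.

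The ratio of 2 members' raw signals on the same array is the same under any scaling that divides an array by 1 factor, which quantile normalization does not do. In young large oocytes the signal of miR-23a was 0.535 and 0.524 times that of miR-23b, and in aged large oocytes 1.05 and 1.15 times. The mean log2 ratio was -0.92 ± 0.02 in young and 0.14 ± 0.09 in aged oocytes (SD, n = 2 for both), a difference of 1.05 on the log2 scale or 2.08-fold. The ratio of miR-23a to miR-24 was 0.315 and 0.279 in young large oocytes, against 0.554 and 0.563 in aged ones, 1.88-fold higher. miR-24 is released by both clusters, so it shares a cluster with miR-23a as well as with miR-23b. The ratio of miR-23b to miR-24 was 0.589 and 0.532 in young large oocytes, against 0.527 and 0.489 in aged ones. Its log2 difference was -0.14, near the spread between duplicates (SD of 0.10 and 0.08).

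In all 3 ratios the groups did not overlap. The share of other microRNA pairs without overlap was not computed, and 80.4% of single microRNAs tested did not overlap before the floor. The exact permutation test (two-sided) gave p = 0.333 for each ratio, 0.333 adjusted over the 3. This is the smallest p that 2 arrays against 2 allow. Set against the deposited errors, the log2 differences were 1.05 ± 0.559, 0.914 ± 0.477 and -0.140 ± 0.408, so that both ratios of miR-23a lay within 2 errors of no change. Leaving out any of the 4 arrays moved the difference of miR-23a over miR-23b to between 0.987 and 1.12. A ratio does not say which of its members differs between the groups. Pairs were formed from the 3 members detected on all 4 large arrays, a choice made after the signals were seen, because none was detected on all 6.

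**Figure D3:**
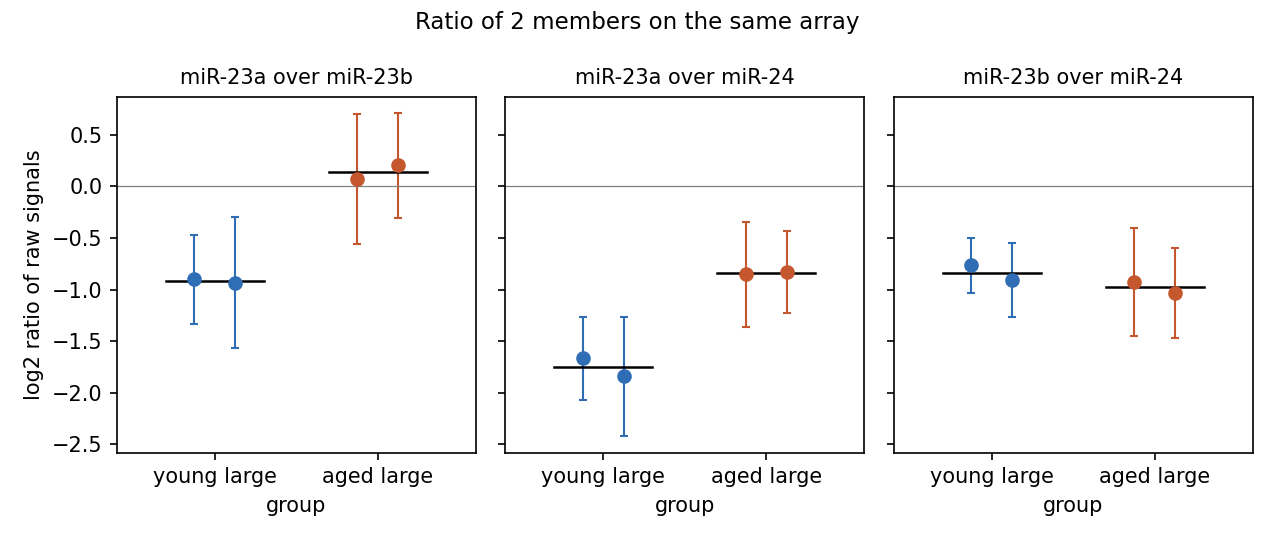
Log2 ratio of the raw signals of 2 members on the same array (y axis) in young large and aged large oocytes (x axis); points are arrays, bars the error that the deposited errors give, and black lines group means. The mean of miR-23a over miR-23b is -0.92 in young and 0.14 in aged oocytes, while miR-23b over miR-24 differs by -0.14.

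Blood cell signal was looked at beside miR-23a, because of the cluster's link to myeloid cells. Among 71 other microRNAs detected on all 4 large arrays, the 3 whose scaled log2 pattern came closest to that of miR-23a were miR-223, let-7a and let-7d. Their root mean square differences were 0.141, 0.163 and 0.164, against a median of 0.449 over the 71. The signals of miR-23a on these arrays were 2.62 to 4.28 times their deposited errors. Those errors did not enter the differences, so the order of the 3 is uncertain. miR-223, a microRNA of myeloid cells, had scaled signals of 23.7 and 24.95 in young large oocytes, and 50.5 and 54.3 in aged ones. It rose with age (log2 change 1.11; limma, adjusted p = 0.0233), and the call held with 2 of 6 other scalings. Of 7 blood cell markers, miR-223 and miR-155 were detected, and no raw signal of the other 5 exceeded 2.24. With age miR-155 had a log2 change of 0.21 and did not pass (limma, adjusted p = 0.157). The summed raw signal of the 7 ran from 56.1 to 71.9 in young large, 62.8 to 73.2 in aged large and 13.4 to 13.9 in young small oocytes. These sums are not scaled, so the brightness of the arrays enters them. The part of blood cells in the signal of miR-23a was not tested. The pattern of miR-23b was closest to miR-93, miR-103 and miR-16 (0.042, 0.067 and 0.084), and that of miR-24 to miR-15b, miR-107 and miR-21 (0.033, 0.035 and 0.038).

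Markers of endothelium, the best known site of these clusters, were not seen: miR-126-3p and miR-126-5p were detected on no array, with a highest raw signal of 1.18. None of 4 stroma and smooth muscle markers was detected (highest raw signal 0.331). Of 6 granulosa cell markers, miR-21, miR-212 and miR-202-3p were detected. None passed in either comparison, beside 29.9% of all microRNAs tested with age and 37.2% with growth. On unscaled arrays miR-21 passed as lower with age (59.8% of all called) and all 3 passed as higher with growth (89.4% of all called). The summed raw signal of the 6 was 65.9 to 86.7 in young large, 54.2 to 63.9 in aged large and 30.3 to 32.2 in young small oocytes. These sums are not scaled, so the brightness of the arrays enters them. After scaling, miR-21, miR-212 and miR-202-3p had fitted log2 changes of -0.13, 0.40 and -0.52 in large against small oocytes. The part of granulosa cells in the members' signals was not tested. No oocyte-specific microRNA served as a marker; all 7 arms listed of the early-embryo miR-290 to miR-295 cluster were detected on at least 1 array.

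The second comparison, young large against young small oocytes, bears on oocyte growth. None of the 4 tested members passed (limma, adjusted p of 0.05), beside 37.2% of the 94 microRNAs tested. Of the members, miR-24 alone had an unadjusted p under 0.05, beside 45.7% of those tested. Its fitted log2 change was 0.26 ± 0.08, higher in large oocytes (SE; limma, adjusted p = 0.0875). The scaled signal was 10.9 ± 0.0547 in young large oocytes and 9.17 ± 0.823 in young small ones (SD, n = 2 for both), without overlap. The gap of 1.75 was 0.870 times its deposited error. miR-24 passed as higher in large oocytes in 8 alternatives, 3 of them at the lower floor with the first 3 scalings named here. Its log2 change was 1.79 on unscaled arrays, 0.76 when the percentile was taken over all entries and 0.68 when arrays were scaled to total signal, where 89.4%, 18.1% and 28.7% of microRNAs passed. Each of these scalings also moved the median of all microRNAs up, by 1.53, 0.50 and 0.42. Among microRNAs above the floor on every array it passed with 0.26 (61.5% passed), and without young small array 2 with 0.32 (limma, adjusted p = 0.04999, 26.6% passed).

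For the other members the small arrays set the limit. Their lowest detected scaled signals were 5.76 and 6.17, above the scaled signals of miR-23a and miR-27b in young large oocytes. No fold can be given for these. The fitted log2 change of miR-23b, mostly set by the floor, was 0.03 ± 0.02 (SE; limma, adjusted p = 0.400). Before the floor, miR-23a, miR-23b and miR-24 were higher in large oocytes without overlap, and miR-27b overlapped; 76.6% of all microRNAs tested did not overlap. The gaps of miR-23a and miR-23b were 1.77 ± 1.89 and 2.81 ± 1.93 (± the deposited errors combined). At the lower floor miR-23a passed as higher in large oocytes and miR-23b did not (limma, adjusted p = 0.00387 and 0.109, beside 43.6% of microRNAs called). miR-23b passed there without young small array 2 (limma, adjusted p = 0.00581) and with 4 of 6 other scalings. No size is given for these changes, since neither member was detected on a small array, and the small-array values of miR-23a were no larger than 0.67 times their error. miR-223, named above among the nearest to miR-23a, passed as higher in young large than in young small oocytes (limma, adjusted p = 0.00563). It also passed with 6 of 6 other scalings. It was detected on no small array either, so its size is not given. miR-155, the other blood cell marker detected, had a log2 change of -0.20 and did not pass (limma, adjusted p = 0.159). The direction of miR-155 depended on the scaling. The part of blood cells in this comparison was not tested.

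**Figure D4:**
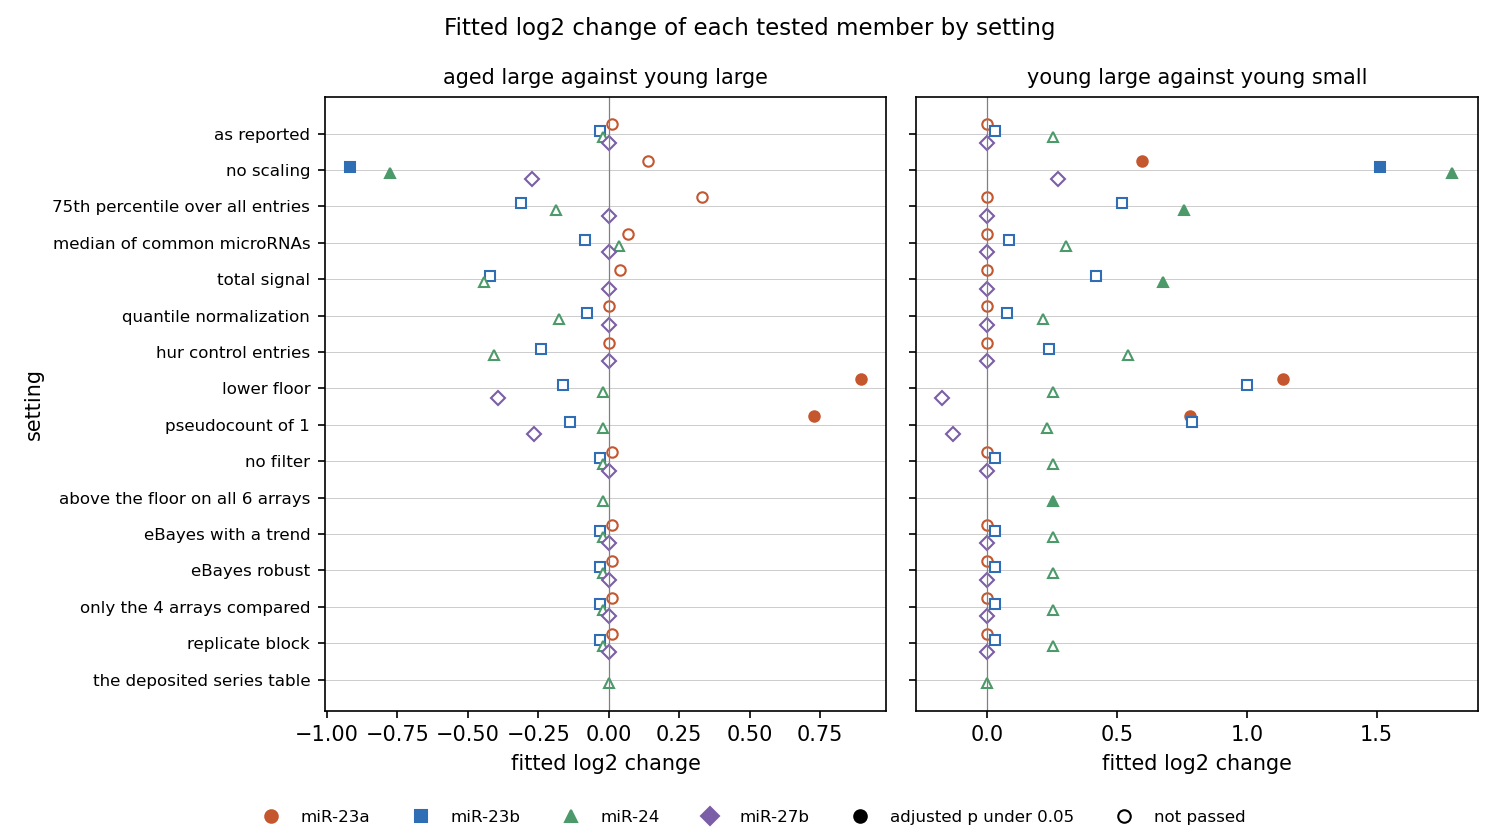
Fitted log2 change (x axis) of the 4 tested members in both comparisons, by setting (y axis). Fits with an array left out, and the lower floor combined with other settings, are not drawn. Filled points had an adjusted p under 0.05, and a setting without a point did not test that member. miR-23a lies at 0.01 as reported and at 0.89 and 0.73 in aged against young large oocytes once the floor is lowered or replaced by a pseudocount, while miR-24 runs from 0 to 1.79 in large against small oocytes.

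Other microRNAs known to be repressed by Myc, as miR-23a and miR-23b are, passed in both directions. Of 24 such entries 19 were detected and 18 tested. With age 5 rose, 6 fell and 7 did not pass, beside 29.9% of all microRNAs called, with a median log2 change of 0.01 beside 0 over all microRNAs tested. miR-16, a brake on the cell cycle, fell by 0.30 on the log2 scale, and let-7b and let-7c, which mark differentiation, rose by 1.26 and 1.29 (limma, adjusted p = 0.00110, 0.00186 and 0.00237). These 3 kept their signs under the 6 other scalings, but miR-16 did not pass under the percentile over all entries or the median of common microRNAs (limma, adjusted p = 0.208 and 0.101), nor let-7b and let-7c on unscaled arrays (limma, adjusted p = 0.0667 and 0.0664). The split of the list depended on the scaling, from 0 higher and 11 lower on unscaled arrays to 2 higher and 0 lower with the percentile over all entries. In large against small oocytes 2 were higher, 9 lower and 7 did not pass, beside 37.2% of all microRNAs called. The median of the list was -0.37, beside 0 over all microRNAs tested. Most list entries tested were detected on all 6 arrays. A fit of only the microRNAs detected on all 6 called 44.6% with age and 55.4% with growth. let-7b, let-7i and miR-26b had log2 changes of -0.94, -0.81 and -0.50 (limma, adjusted p = 0.00396, 0.00396 and 0.00428). Their direction depended on the scaling: on unscaled arrays all 18 tested were higher in large oocytes, let-7b by 0.59, and none passed as lower when arrays were scaled to the percentile over all entries, to total signal or to the control entries named hur on the array. Of 10 microRNAs linked to blood vessel growth, miR-296-5p alone was detected, and it passed in neither comparison (log2 change 0.52 with age and -0.30 with growth).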

How the data were processed

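Per the labels, total RNA carried Cy3; the submitters' processing notes name Agilent Feature Extraction 9.5 for the images. Per the file headers, each deposited scanner file holds for every microRNA an intensity summed over its probes, the error of that intensity, whether it was detected, and the fraction of spots kept as inliers. Values below 0 show that background was subtracted, and the arrays are not normalized to each other. In the series table deposited by the authors, intensities under 10 are 0 and the rest are unchanged (0 of 577 entries depart from this), which put 3 of the 5 members at 0 on all arrays; it is linear and uncentred. Neither names a genome build; coordinates are RefSeq's. No entry had the same signal on both arrays of any of the 15 array pairs.

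Entries were scaled and floored as described with the results, without 22 control entries. The fit (limma 3.58.1, R 4.3.3; lmFit, eBayes) took all 6 arrays with 1 mean for every group, leaving 3 residual degrees of freedom; tests were two-sided, with p adjusted by Benjamini-Hochberg over all microRNAs tested and a threshold of 0.05. Values at the floor on all arrays pulled the prior SD to 0.00743, which makes the standard errors of floored members too small. On simulated data the fit called changes in the right direction, but false calls exceeded the share that the threshold allows. Counts of calls may therefore be too high. The simulated noise was smaller than the members' deposited errors, so the simulation does not show how the fit fares at those errors. Scaled gaps carry the deposited errors combined in quadrature, with the scaling taken as exact. The number of arrays limits the precision. Figures were drawn with matplotlib 3.10.9.

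All 5 members were named, with their other strands, and of each list up to 3 entries with the smallest p; likeness took the 3 nearest microRNAs. The members and lists were chosen with earlier results of these data known. Alternatives were 6 scalings, 2 floors, 3 filters, the series table, 2 forms of eBayes, the 4 arrays compared, a replicate block and each array left out. The large-array pairs and likeness, and the lower floor combined with other settings, were added after seeing the data.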

Additional observations from a re-analysis of the deposited data

How the results depend on the processing

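Counts of members called, 0 in each comparison, moved with the scaling and the floor. With age, 2 were called without scaling, both lower (miR-23b at -0.92 and miR-24 at -0.78), 1 with the lower floor, 1 with a pseudocount, and 1 in a fit of the 4 large arrays with the lower floor (miR-23a each time). Of all microRNAs tested, these settings called 59.8%, 36.1%, 38.1% and 36.5%. With growth, 3 were called without scaling and 1 each with the percentile over all entries, the total signal, the lower floor, the pseudocount and the filter above the floor. The shares of all microRNAs called there were, in that order, 89.4%, 18.1%, 28.7%, 43.6%, 46.8% and 61.5%. Leaving out each array gave 0 to 1 in both. With age the calls were miR-23b at -0.06 without young large array 2 and miR-23a at 0.02 without aged large array 1; with growth they were miR-23b at 0.06 without young large array 2 and miR-24 at 0.32 without young small array 2. The array left alone in its group is assumed to vary like the others. In those fits miR-23a and miR-23b each had a single value over the floor, so their standard errors are too small. miR-24 with age turned positive with the median of common microRNAs (0.0346, also at the lower floor) and without aged large array 1 (0.0242, also at the lower floor), with no call; leaving out an array gave -0.0658 to 0.0242. At the lower floor miR-27b passed as lower with age under 3 of 6 other scalings, where aged values were undetected. The filter for detection on all 6 arrays tested no member.

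Of all microRNAs, 29 were called with age. That became 58 on unscaled arrays, 6 when the percentile was taken over all entries, 12 with no filter, 16 under the replicate block, and 16 to 30 when an array was dropped (16 without young small array 1, 19 without either young small array 2 or array 1 of young large oocytes). With growth 35 were called, which became 84 on unscaled arrays, 17 for the percentile over all entries, 23 for hur controls, 1 with no filter, 22 from the series table, and 13 to 36 when an array was dropped (13 without young small array 1). With age 14 were higher and 15 lower; the split was 3 and 55 on unscaled arrays, 4 and 24 for total signal, 5 and 18 for hur controls, and 8 and 16 after quantile normalization. With growth 17 were higher and 18 lower; for the same 4 settings the split was 84 and 0, 26 and 1, 21 and 2, and 19 and 11, then 17 and 0 for the percentile over all entries, 18 and 4 from the series table. Median log2 changes with age moved by -0.76 on unscaled arrays, -0.17 for the percentile over all entries, -0.42 for total signal and -0.39 for hur controls; with growth they moved by 0.29 for hur controls and 0.34 from the series table. The cause of these moves was not tested. Same-numbered arrays deviated together with r = 0.187, -0.179 and -0.032 between groups. These values cannot decide whether the numbers pair the arrays, partly because values at the floor do not deviate. With the replicate block 0 members were called, and 16 microRNAs with age and 26 with growth. Signals within 2 errors of 0 limit miR-27a everywhere and all members but miR-24 in small oocytes.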
